A study of Mus musculus with 2 samples.

Results

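The mitochondrial ribosomal protein genes were examined for open chromatin in embryonic mouse liver. They were taken by name, as the protein-coding genes of GENCODE M21 whose symbol is Mrpl or Mrps followed by a number, and 78 of 21884 protein-coding genes with a unique symbol met this rule. Of these, 49 were named for the large subunit (Mrpl) and 29 for the small subunit (Mrps), and they lay on 17 chromosomes. In DNase-seq, the enzyme DNase I cuts DNA that nucleosomes do not cover, so that a peak of cuts marks an accessible region and a short protected stretch inside it, a footprint, marks bases shielded from the enzyme. The samples were livers of embryos aged 13.5 days on a mixed C57BL/6N,129 background, labelled wild type with several copies of the A85 YAC. A YAC is a yeast artificial chromosome, both libraries carried it, and the sources used here do not say what it holds. They formed 1 group of 2 biological replicates, which had separate biosample labels and a common donor label, and no treatment or control group was named.

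Mitochondria have their own ribosomes, which translate the few messenger RNAs encoded by mitochondrial DNA into core subunits of the respiratory chain. The RNA of these ribosomes is mitochondrial, whereas all of their proteins are encoded in the nucleus, made in the cytosol and imported. Some of these proteins have bacterial counterparts, and others were added during the evolution of mitochondria. Such genes are active in nearly all cell types, and in the fetal liver most cells are developing erythroblasts, which need mitochondria for heme synthesis. A symbol is not proof of the place in the ribosome: the products of Mrps30 and Mrps18a sit in the large subunit, and that of Mrps36 is known as part of the 2-oxoglutarate dehydrogenase complex.

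All 78 genes had an accessible promoter in both libraries. A promoter here is the sequence within 1 kb of any annotated transcript start. A shared region is the merged stretch of peaks of both replicates that overlap by at least 1 bp, so its edges can come from a single library. Footprints found in both replicates were merged in the same way. A shared region was found at the promoter of 78 of 78 genes (95% Wilson interval 95.3% to 100%), against 58.4% of all protein-coding genes. A footprint found in both replicates lay at 78 of 78 of these promoters, against 52.3% of all protein-coding genes. As the genes are not replicates of a condition, these shares are descriptions and no test was made of them. In whole tissue, a promoter open in more cells and a promoter more open in each cell cannot be told apart.

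Many of these promoters lay beside the start of a neighbouring gene on the other strand. The DNA between some of these neighbours is shown first, because these short intervals separate the starts of both genes. Each sequence lies between the annotated 5′ ends of the pair on mm10, is read on the strand of the ribosomal protein gene and ends just before its 5′ end. Capitals mark bases inside footprints found in both replicates. As overlapping footprints were merged, a capital base can lie in the footprint of a single library.
Mrps18c and Helq (chr5:100798599-100798626, + strand): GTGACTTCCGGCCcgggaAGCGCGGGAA
Mrps34 and Eme2 (chr17:24895088-24895115, + strand): GCTTTTGTTCAGGACACCGGCCGCTTCC
Mrps18b and Ppp1r10 (chr17:35916390-35916433, - strand): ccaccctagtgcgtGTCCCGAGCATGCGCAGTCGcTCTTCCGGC
Mrpl57 and Ska3 (chr14:57826186-57826233, + strand): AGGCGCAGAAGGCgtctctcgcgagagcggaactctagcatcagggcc
Mrpl49 and Fau (chr19:6057786-6057843, - strand): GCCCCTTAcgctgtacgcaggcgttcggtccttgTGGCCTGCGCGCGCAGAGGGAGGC
Mrpl32 and Psma2 (chr13:14613166-14613239, - strand): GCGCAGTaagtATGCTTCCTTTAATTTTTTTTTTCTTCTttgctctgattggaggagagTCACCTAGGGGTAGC
Mrps27 and Ptcd2 (chr13:99344706-99344785, + strand): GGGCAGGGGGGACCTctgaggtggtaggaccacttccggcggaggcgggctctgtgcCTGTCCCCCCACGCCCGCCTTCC
Mrpl37 and Cyb5rl (chr4:107066869-107066987, - strand): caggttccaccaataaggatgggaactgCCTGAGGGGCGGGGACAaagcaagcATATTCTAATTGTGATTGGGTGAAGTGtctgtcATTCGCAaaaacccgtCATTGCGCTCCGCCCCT
Mrpl10 and Lrrc46 (chr11:97041408-97041559, + strand): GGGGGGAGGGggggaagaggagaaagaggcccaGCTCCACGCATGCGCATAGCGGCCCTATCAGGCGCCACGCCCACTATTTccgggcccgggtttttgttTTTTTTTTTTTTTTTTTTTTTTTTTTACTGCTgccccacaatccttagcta
Mrps12 and Sars2 (chr7:28741821-28741991, - strand): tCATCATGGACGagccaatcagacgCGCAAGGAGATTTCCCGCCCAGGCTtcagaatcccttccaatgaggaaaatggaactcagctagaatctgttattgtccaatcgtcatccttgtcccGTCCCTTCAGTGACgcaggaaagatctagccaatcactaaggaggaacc

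In the interval of Mrps34 and Eme2 the merged footprint covered all 28 bases, and the other intervals shown were covered in part. The share was 23 of 28 bases between Mrps18c and Helq, whereas between Mrpl57 and Ska3 it covered 13 of 48 and between Mrps12 and Sars2 the 3 footprints covered 50 of 171. Intervals not printed include that of Mrpl54 and Apba3, with 0 of 25 bases covered, and that of Mrpl30 and Mitd1, with 32 of 65.

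Mrpl17 and Mrps25, the promoters with the highest and the lowest mean rank of the values below over both replicates, had no divergent partner. The 150 bases before their 5′ ends, on the strand of each gene and with the same use of capitals, were as follows.
Mrpl17 (chr7:105811100-105811249, - strand): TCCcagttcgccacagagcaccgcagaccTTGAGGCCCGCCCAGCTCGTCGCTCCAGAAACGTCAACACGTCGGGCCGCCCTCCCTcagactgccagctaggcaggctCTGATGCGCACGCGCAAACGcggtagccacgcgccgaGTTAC
Mrps25 (chr6:92184034-92184183, - strand): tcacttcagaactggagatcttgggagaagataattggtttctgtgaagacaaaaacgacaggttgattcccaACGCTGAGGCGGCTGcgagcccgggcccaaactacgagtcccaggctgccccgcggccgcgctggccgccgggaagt
The merged footprints found in both replicates covered 85 of these 150 bases at Mrpl17 and 15 of 150 at Mrps25.

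Accessibility was compared through the value of the highest peak at each promoter, which is the authors' deposited signal on a scale that is not named. The values of a library rise in equal steps, so each is a whole number of steps. This number was taken as a count, and that a step stands for a single cut was assumed. On this reading, the highest promoter peaks of the 78 genes held 158 to 1798 counts in replicate 1, with a median of 569.5. In replicate 2 they held 233 to 2652 counts, with a median of 995.5. Intervals of single values are 95% Poisson intervals of these assumed counts and cover counting error only.

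The median value of the 78 genes was 7.21 in replicate 1 and 6.01 in replicate 2. The 12871 protein-coding genes with a promoter peak in both replicates had medians of 5.90 in replicate 1 and 5.0 in replicate 2. The median ribosomal protein gene thus lay at percentile 57.6 of these genes in replicate 1 and 57.7 in replicate 2. The lower end differed more. The lower quartile was 4.79 in replicate 1 and 4.25 in replicate 2 for the ribosomal protein genes, against 2.14 and 2.08 for all genes with a promoter peak in both, and none of the 78 had a value under 2.00 in replicate 1 or under 1.41 in replicate 2.

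**Figure D1:**
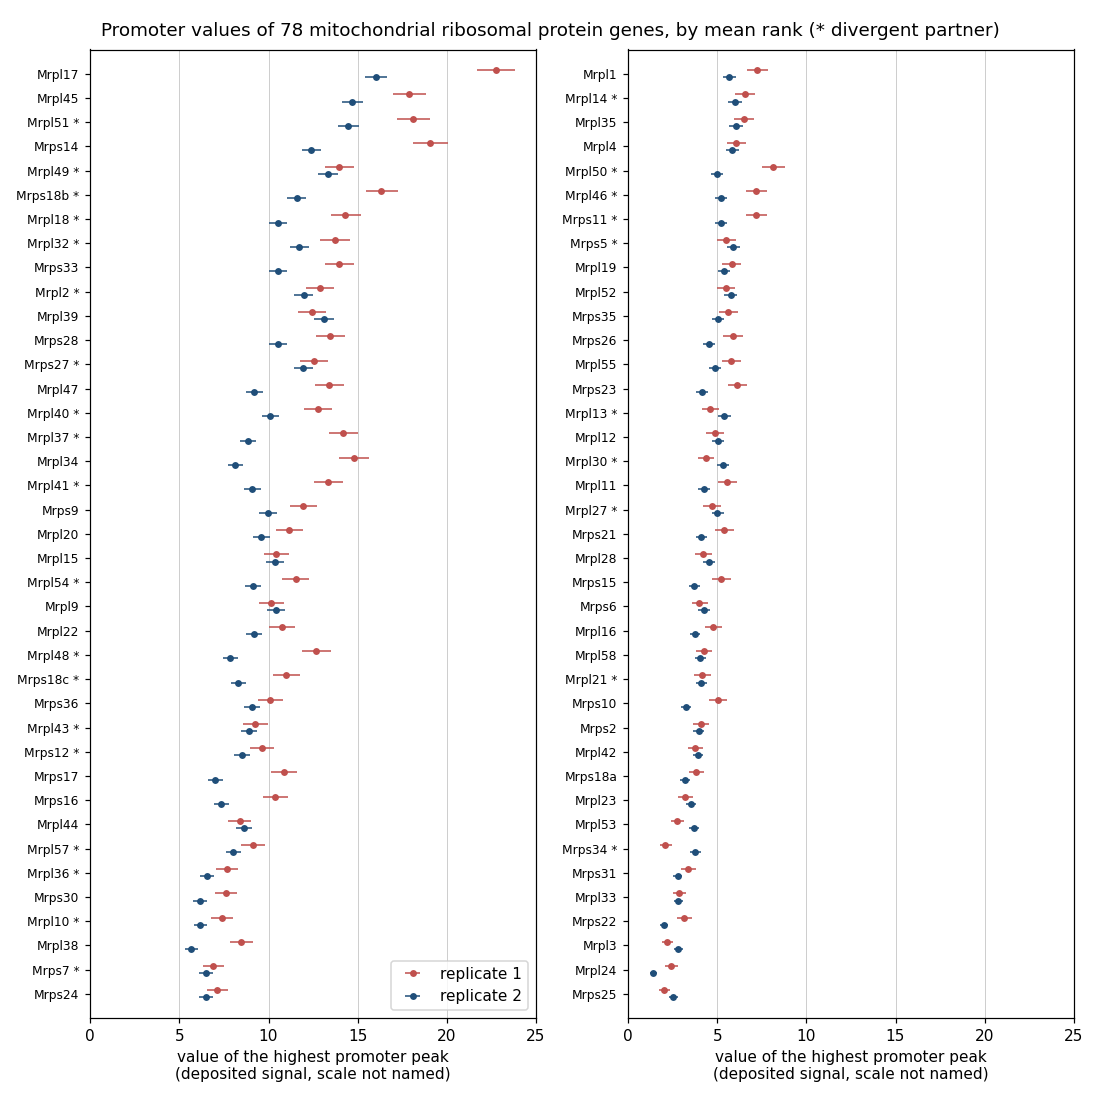
Value of the highest promoter peak of each of the 78 mitochondrial ribosomal protein genes (horizontal axis, deposited signal on an unnamed scale, linear from 0), sorted from the top left by mean rank over both replicates. Points are single libraries, bars are 95% Poisson intervals of the assumed counts, and an asterisk marks a divergent partner. Values span 2.00 to 22.8 in replicate 1 and 1.41 to 16.0 in replicate 2.

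Mrpl17 (ENSMUSG00000030879.10, chr7:105803206-105811099), a large subunit protein with a bacterial counterpart, had the highest value, 22.8 (21.7 to 23.8) in replicate 1 and 16.0 (15.4 to 16.6) in replicate 2. Mrpl45, whose product lies at the exit of the peptide tunnel near the inner membrane, had 17.9 and 14.7. Mrpl51, another protein of the large subunit, had 18.1 in replicate 1 and 14.5 in replicate 2. Mrps14, a small subunit protein of the bacterial type, had 19.1 and 12.4. Mrpl17 led in both libraries. Mrps14 came next in replicate 1, whereas in replicate 2 it also lay behind Mrpl45, Mrpl51, Mrpl49 and Mrpl39.

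The other 6 of the 10 highest by mean rank were Mrpl49, Mrps18b, Mrpl18, Mrpl32, Mrps33 and Mrpl2. Mrpl49 had 14.0 and 13.3, and Mrpl18, which binds the ribosomal RNA of the large subunit in bacteria, had 14.3 and 10.5. Mrpl32, a protein that is trimmed after import before it joins the large subunit, had 13.7 in replicate 1 and 11.7 in replicate 2. Mrps33 had 14.0 and 10.5, and Mrpl2, which lies close to the peptidyl transferase centre in bacterial ribosomes, had 12.9 and 12.0. For Mrps18b the values of 16.3 in replicate 1 and 11.6 in replicate 2 belong to a peak that lay 272 bp from its nearest start in replicate 1 and 252 bp in replicate 2, on the side of its neighbour Ppp1r10. The shared region that covers the start of Mrps18b itself had 7.67 and 7.06.

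The lowest promoters were those of Mrps25, Mrpl24, Mrpl3, Mrps22 and Mrpl33. Mrps25 (ENSMUSG00000014551.8, chr6:92169525-92184033) had 2.00 (1.70 to 2.34) in replicate 1 and 2.54 (2.30 to 2.79) in replicate 2. Mrpl24 had 2.42 in replicate 1 and 1.41 in replicate 2, where its highest peak was 60 bp wide. Mrpl3, which in bacteria reaches into the catalytic core of the large subunit, had 2.19 and 2.79. Mrps22, a small subunit protein with no bacterial counterpart, had 3.14 in replicate 1 and 2.02 in replicate 2, and Mrpl33 had 2.85 and 2.81. The order of these 5 differed between the libraries, and other genes lay among them, Mrps34 (2.09) and Mrpl53 (2.76) in replicate 1 and Mrps31 (2.77) in replicate 2.

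Values did not part cleanly by subunit. The 49 large subunit genes had medians of 7.67 in replicate 1 and 6.04 in replicate 2, and the 29 small subunit genes 6.87 and 5.89. Names up to number 36 (Mrpl) or 21 (Mrps) follow bacterial numbering, with exceptions, and higher numbers were given to proteins first described in mitochondria. The 34 genes with higher numbers had medians of 8.42 in replicate 1 and 7.18 in replicate 2, and the 44 with bacterial numbers 6.51 and 5.87. The quartiles of both classes overlapped, at 5.64 to 12.7 for the higher numbers and 4.66 to 10.8 for the bacterial numbers in replicate 1, and at 4.62 to 9.19 and 4.22 to 8.68 in replicate 2.

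Set beside the other large protein assemblies of translation and respiration, the mitochondrial ribosomal protein genes had the lower medians. The genes of cytosolic ribosomal proteins (80 by symbol, 78 with a promoter peak in both replicates) had medians of 9.24 in replicate 1 and 7.38 in replicate 2. The genes of respiratory chain subunits, with those of ATP synthase counted among them (83 by symbol, 77 with a promoter peak in both), had 8.77 and 7.24. A shared promoter region was found at 77 of the 80 cytosolic ribosomal protein genes and at 76 of the 83 respiratory chain genes. The differences between the 3 groups were not tested.

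**Figure D2:**
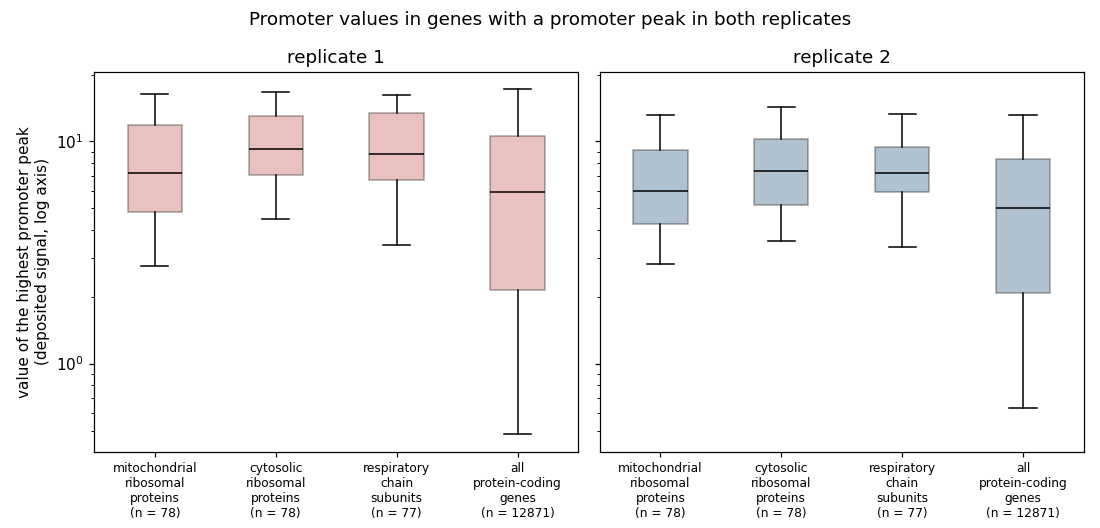
Values of the highest promoter peak (vertical axis, deposited signal, log axis) by gene group in replicate 1 (left) and replicate 2 (right), for genes with a promoter peak in both. Boxes span the quartiles with the median as a line, and whiskers run between percentiles 5 and 95. The mitochondrial ribosomal protein genes have medians of 7.21 and 6.01, below the cytosolic ribosomal proteins (9.24 and 7.38) and above all protein-coding genes (5.90 and 5.0).

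Other genes of mitochondrial translation were open too. Of the 5 mitochondrial ribosomal proteins with other symbols, all had a shared promoter region. Dap3, a GTP-binding protein of the small subunit, had 6.81 in replicate 1 and 5.60 in replicate 2. Ptcd3, a pentatricopeptide repeat protein of the small subunit, had 6.57 and 6.81. Aurkaip1, another small subunit protein, had the highest values of the 5, 13.0 and 10.3, and Chchd1, also of the small subunit, had 5.23 in replicate 1 and 6.48 in replicate 2. Gadd45gip1, a large subunit protein, had 6.64 and 7.42.

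A shared promoter region was also found at 11 of 11 genes for translation factors, 18 of 18 for ribosome assembly and rRNA modification, and 6 of 6 for mitochondrial transcription and messenger RNA. The median values were 5.77 in replicate 1 and 4.12 in replicate 2 for the translation factors, and 7.59 and 6.61 for assembly and rRNA modification. Transcription and messenger RNA genes had medians of 9.97 in replicate 1 and 8.20 in replicate 2.

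The highest promoter peak had the same width as in other genes, with a median of 220 bp in replicate 1 and 240 bp in replicate 2, equal to the medians of all genes with a peak in both. It covered a start of the gene itself in 72 of the 78 genes in replicate 1 and in 73 in replicate 2. The widest by the mean of both libraries were Mrps6 at 440 bp in replicate 1 and 520 bp in replicate 2, Mrps34 at 520 and 380 bp, Mrpl11 at 380 and 400 bp, and Mrpl33 at 420 and 360 bp. Mrps22, at 240 and 500 bp, and Mrps5, at 380 and 360 bp, tied for the next place. None of these 6 was among the 10 highest by value, and Mrps22 and Mrpl33 were among the 5 lowest.

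A single shared region was the usual arrangement. More than 1 shared region lay at the promoter of 22 of the 78 genes (28.2%), against 48.5% of the genes with a shared promoter region. The ribosomal protein genes were shorter, with a median gene length of 7900 bp against 25084 bp, and had a median of 4 annotated starts against 5, and the part of this in the count was not tested. With the window kept to 1 kb around the 5′ end alone, 21.8% of the ribosomal protein genes and 37.8% of the genes with a shared promoter region had more than 1 region.

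Head-to-head neighbours were frequent among the mitochondrial ribosomal protein genes. A partner was called divergent where a protein-coding gene on the other strand had a start up to 1 kb upstream of a start of the ribosomal protein gene. This held for 29 of the 78 genes (37.2%, Wilson interval 27.3% to 48.3%), against 11.0% of all protein-coding genes and 17.7% of the genes with a shared promoter region. By subunit, it held for 21 of 49 Mrpl and 8 of 29 Mrps genes. Respiratory chain genes had a similar share, 36.1% (30 of 83), and cytosolic ribosomal protein genes 18.8% (15 of 80). When the outermost 5′ end of each gene was used alone, the count was 18 of 78 (23.1%), against 6.77% of all genes.

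Because Mrps11 and Mrpl46 face each other, the 29 genes had 28 distinct divergent promoters. That pair joined a small and a large subunit protein, with starts 30 bp apart in a peak of value 7.19 in replicate 1 and 5.21 in replicate 2. Several other partners also act in mitochondria. Twnk, beside Mrpl43, encodes the helicase that unwinds mitochondrial DNA, and Sars2, beside Mrps12, encodes the mitochondrial enzyme that charges serine tRNA. Ndufs6, beside Mrpl36, encodes a subunit of respiratory complex I, and Ptcd2, beside Mrps27, a mitochondrial pentatricopeptide repeat protein. Fau, beside Mrpl49, encodes a cytosolic ribosomal protein fused to a ubiquitin-like part.

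The remaining partners have varied roles. Helq (beside Mrps18c), Eme1 (Mrpl27) and Eme2 (Mrps34) encode a helicase and nuclease subunits of DNA repair. Ncapd2 (Mrpl51) and Ska3 (Mrpl57) encode proteins of chromosome condensation and of the kinetochore, and Hira (Mrpl40) a histone chaperone. Psma2 (Mrpl32) and Tcp1 (Mrpl18) encode subunits of the proteasome and of the cytosolic chaperonin, and Ppp1r10 (Mrps18b) a regulator of nuclear protein phosphatase. Rab6a (Mrpl48) and Gga3 (Mrps7) act in Golgi traffic and Klc4 (Mrpl2) is a kinesin light chain. The others were Apba3 (Mrpl54), Ighmbp2 (Mrpl21), Mtbp (Mrpl13), Tmem63b (Mrpl14), Mitd1 (Mrpl30), Zfp189 (Mrpl50), Cyb5rl (Mrpl37), Zfp661 (Mrps5), Lrrc46 (Mrpl10) and Pnpla7 (Mrpl41).

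The starts of such pairs lay close together. The closest starts of the 29 genes and their partners were 26 to 935 bp apart with a median of 59 bp, against a median of 106 bp over the 2400 protein-coding genes with a divergent partner. Gaps under 100 bp made up 20 of 29 (69.0%), against 48.2% of all genes with such a partner. The shortest were Mrpl54 with Apba3 at 26 bp, Mrps18c with Helq and Mrps34 with Eme2 at 29 bp each, Mrps11 with Mrpl46 at 30 bp, Mrps7 with Gga3 at 32 bp and Mrpl18 with Tcp1 at 37 bp. They were followed by Mrpl21 with Ighmbp2 at 38 bp, Mrps18b with Ppp1r10 at 45 bp, Mrpl27 with Eme1 at 47 bp and Mrpl57 with Ska3 at 49 bp. Mrpl41 and Pnpla7, at 935 bp, were the only pair more than 300 bp apart.

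Values at these 10 shortest gaps ranged widely. The highest peak of both Mrpl54 and Apba3 had 11.5 in replicate 1 and 9.13 in replicate 2. In replicate 1 that peak lay inside Mrpl54, 184 bp from its nearest start, and not over the gap. Mrps18c and Helq shared a peak of 11.0 and 8.31. Mrps34 and Eme2 shared a low peak of 2.09 in replicate 1 and 3.77 in replicate 2, whereas Mrpl18 and Tcp1 shared a peak of 14.3 and 10.5. The region over the gap had 6.87 in replicate 1 and 6.51 in replicate 2 for Mrps7 with Gga3, and 4.15 and 4.08 for Mrpl21 with Ighmbp2. It had 4.68 in replicate 1 and 5.01 in replicate 2 for Mrpl27 with Eme1, and 9.13 and 8.02 for Mrpl57 with Ska3.

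In most of these pairs a single merged region spanned both starts. Of the 28 distinct promoters, 24 had a shared region that covered both starts, 26 had a shared region over part of the gap, and 27 had a footprint found in both replicates inside the gap. Single peaks reached less far among these 24. At Mrpl18, Mrpl32, Mrpl43 and Mrps5 the highest peak of replicate 2 did not reach both starts, and at Mrpl54 and Mrps18b that of neither library did. The exception for footprints was the gap of Mrpl54 and Apba3, the shortest. No shared region touched the gap between Mrps12 and Sars2 or between Mrpl40 and Hira, and the nearest shared regions lay outside it, although the gaps held 3 and 1 footprints found in both replicates. In replicate 1 alone the highest peak of Mrps12, with 9.62, covered both starts, whereas in replicate 2 it lay 281 bp from the nearest start of Mrps12. In 27 of the 28 the highest peak of both genes was the same in both libraries. Zfp661 differed from Mrps5 in replicate 1, where its highest peak had 6.35 and that of Mrps5 had 5.49.

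**Figure D3:**
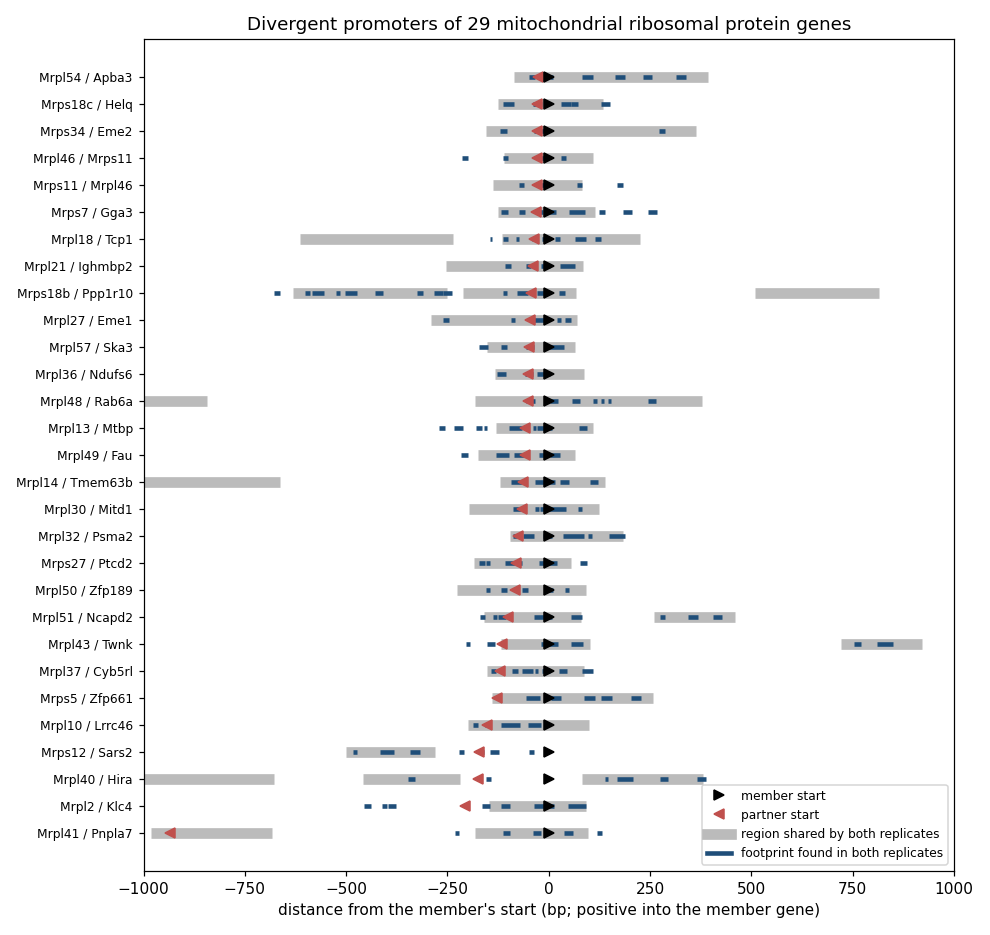
Divergent promoters of 29 genes, sorted from the top by the gap between the closest starts. The horizontal axis is the distance in bp from the start of the ribosomal protein gene (black, positive into that gene), with the partner start in red, regions shared by both replicates in grey and footprints found in both in blue. Overlapping peaks or footprints of the replicates are drawn merged. Gaps run from 26 bp (Mrpl54 and Apba3) to 935 bp (Mrpl41 and Pnpla7), and a single grey region covers both starts in all pairs but Mrps12, Mrpl40, Mrpl2 and Mrpl41.

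Ribosomal protein genes with a divergent partner had the higher values. Their medians were 9.25 in replicate 1 and 8.02 in replicate 2 (29 genes), against 5.86 and 5.36 for those without (49 genes). Other genes with a shared promoter region showed the same split, with 9.35 and 7.36 for the 2229 with a divergent partner, against 5.11 and 4.39 for the 10467 without. The ribosomal protein genes with a partner held a median of 6 footprints found in both replicates, against 4 in those without, and the same medians of 6 and 4 were found in other genes. Mrpl17, Mrpl45, Mrps14 and Mrps33, which have no divergent partner, were nevertheless among the 10 highest.

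Footprints were numerous at these promoters. The median was 6 in replicate 1 and 10 in replicate 2, equal to the medians over all genes with a promoter peak in both, with 4 found in both replicates. Mrps18b had 14 found in both replicates and Mrpl48, whose neighbour Rab6a starts 52 bp away, had 13. Mrpl34 followed with 9, and Mrpl45, Mrpl51, Mrpl18, Mrpl36, Mrps7 and Mrpl13 had 8 each. Mrps25 and Mrps31 had 1 each. Across the 78 genes the number of footprints was higher where the peak value was higher, with a Spearman rho of 0.48 in replicate 1 and 0.28 in replicate 2, against 0.67 and 0.48 across the 12871 genes, where both measures share the library and its depth.

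The footprints lay close to the 5′ end. Of 352 footprints found in both replicates within 1 kb of the 5′ ends of the ribosomal protein genes, 52.3% had their centre within 100 bp of it, against 46.0% of 47618 at genes with a shared promoter region. Upstream positions made up 51.1% at the ribosomal protein genes and 57.8% at the other set.

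**Figure D4:**
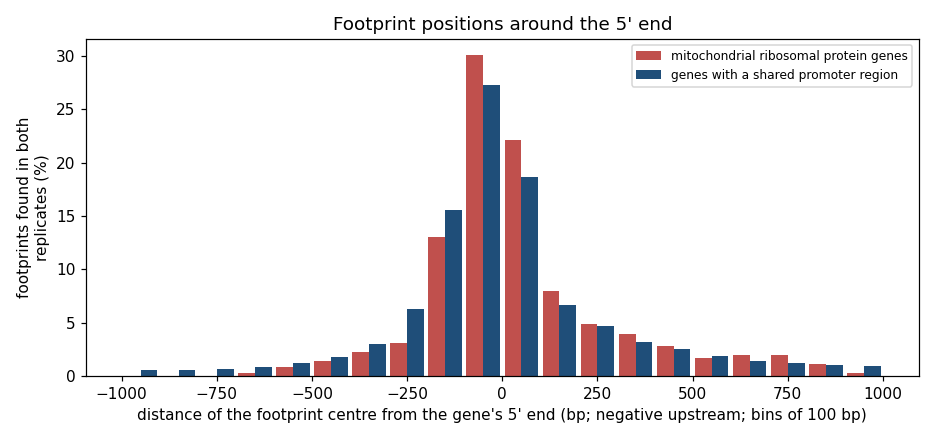
Positions of footprints found in both replicates (percent of footprints, bins of 100 bp) by the distance of their centre from the 5′ end of the gene, with negative distances upstream. Red bars are the 352 footprints of the mitochondrial ribosomal protein genes and blue bars the 47618 of genes with a shared promoter region, and 52.3% of the red set and 46.0% of the blue lie within 100 bp.

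The promoter sequences were rich in CpG. RefSeq promoters on GRCm38.p6, from 250 bp before to 50 bp after a start, were matched for 69 of the 78 genes (75 promoters, as some genes have more than 1). The median ratio of observed to expected CpG was 0.82, against 0.75 at the 12842 promoters of genes with a shared promoter region and 0.59 at all 20128 promoters. A ratio above 0.6, a common mark of CpG islands, was found in 90.7%, against 69.5% and 49.1%. GC content was close to the background, with a median of 58.7%, against 61.0% at promoters of genes with a shared region.

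Of 12 short motifs searched on both strands, the ETS core CCGGAAG was the furthest above its background in percentage points. It is bound by ETS family factors such as GABPA, which is also named nuclear respiratory factor 2 for its part in genes of mitochondrial function. The motif was present in 26 of 75 promoters (34.7%, Wilson interval 24.9% to 45.9%), against 17.1% of promoters of genes with a shared region and 11.9% of all promoters. The YY1 motif AAGATGGCG was found in 8 of 75 (10.7%, 5.50% to 19.7%), against 2.90% and 1.92%. The motif CGCATGCG of nuclear respiratory factor 1 (NRF1), a regulator of nuclear genes for mitochondrial proteins, was found in 7 of 75 (9.33%, 4.59% to 18.0%), against 3.85% and 2.61%. None of the 12 motifs is contained in another.

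AGATAA, the motif of GATA factors, which direct red cell genes, was found in 11 of 75 promoters (14.7%, 8.39% to 24.4%), against 6.43% of promoters of genes with a shared region, which lies outside the interval, and 9.45% of all, which lies inside it. For the other motifs the Wilson interval held the share in genes with a shared region. The GC box GGGGCGG was found in 37.3%, against 42.8% of promoters of genes with a shared region and 31.9% of all. The CCAAT box, searched as CCAATNA, was found in 22.7%, against 16.8% and 16.3%, and the TATA box TATAAA in 6.67%, against 6.82% and 12.2%. The E-box CACGTG was found in 9.33%, against 9.998% of promoters of genes with a shared region and 8.02% of all, and CTACANNTC of ZNF143 and THAP11 in 6.67%, against 5.97% and 4.96%. TGACGTCA (CRE) and TTCCCGCC (E2F) were each found in 2.67%, against 3.07% and 2.31% for the CRE and 4.04% and 2.94% for E2F. TCAAGGTCA, a motif of estrogen-related receptors, was found in 0 of 75, where the Wilson interval reaches 4.87%, against 0.25% and 0.34%. A match is a description of letters, and these comparisons were not tested.

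**Figure D5:**
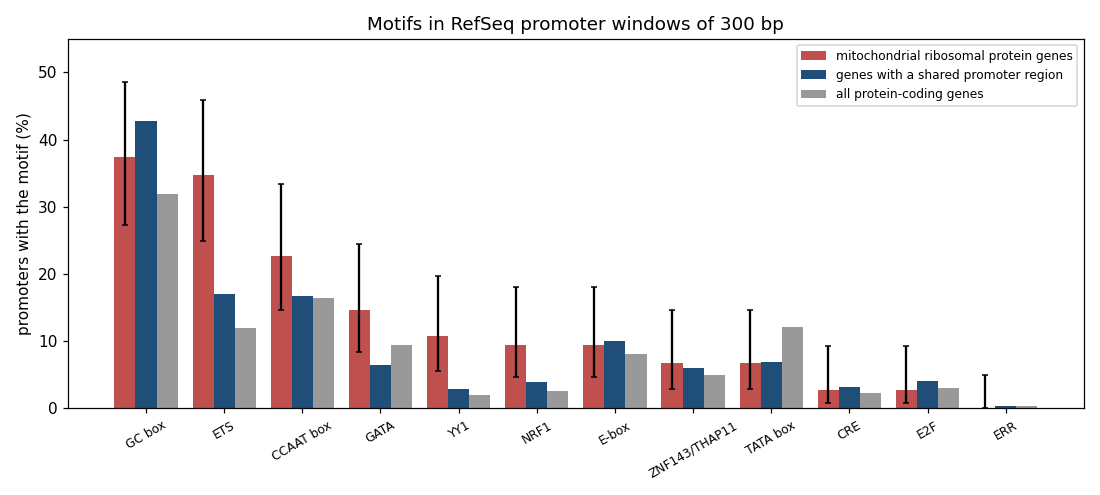
Share of RefSeq promoter windows of 300 bp that hold each of 12 motifs on either strand (vertical axis, percent, from 0). Red bars are the 75 promoters of mitochondrial ribosomal protein genes with 95% Wilson intervals, blue bars the promoters of genes with a shared promoter region and grey bars all promoters. ETS is at 34.7%, against 17.1% and 11.9%, and the GC box at 37.3%, against 42.8% and 31.9%.

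The same motifs were searched inside footprints found in both replicates, extended by 5 bp on each side. ETS was found in 25 of 370 footprints of the ribosomal protein genes (6.76%), at 22 genes, against 2.88% of 47786 promoter footprints in all. YY1 was found in 1.62%, against 0.53%, and NRF1 in 1.89%, against 1.26%. GATA was found in 6 footprints at 6 genes (1.62%, Wilson interval 0.745% to 3.49%), against 0.42%. The GC box was less frequent, at 9.19% against 14.2%. ETS matches lay near the start: 24 of 25 distinct matches in these footprints had their centre within 100 bp of the nearest start of the gene, with a median position of -2 bp relative to it. By the same measure, 34 of 41 GC box and 6 of 6 YY1 matches lay within 100 bp. For NRF1 it was 4 of 7 matches and for the CCAAT box 4 of 8. The share over all footprints was not counted from the nearest start, so nearness is not shown to be particular to ETS.

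Footprinted ETS matches are shown with 10 bases on each side, on the strand of the gene and with the motif in capitals, since their position at the start recurred over both subunits.
Mrps18c (chr5:100798593-100798619, + strand): ggtcacgtgaCTTCCGGcccgggaagc
Mrps34 (chr17:24895101-24895127, + strand): acaccggccgCTTCCGGaacgggagag
Mrps33 (chr6:39810882-39810908, - strand): gggggcgggcCTTCCGGggacgcgcgt
Mrps36 (chr13:100744581-100744607, - strand): cgtctgcgccCCGGAAGctgcccctgc
Mrpl18 (chr17:12916315-12916341, - strand): actgaaaacgCCGGAAGtagggggctg
Mrpl43 (chr19:45006438-45006464, - strand): aaccccggaaCCGGAAGtcaccggtta
Mrpl21 (chr19:3283039-3283065, + strand): gctgcttccgCTTCCGGttgggactgt
Mrpl3 (chr9:105053239-105053265, + strand): gagaaacggaCCGGAAGtggcccggct
The match runs in either orientation. Mrpl3, the last of these, was among the 5 lowest promoters, and Mrpl18 and Mrps33 among the 10 highest.

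NRF1 matches were footprinted at 7 genes, Mrpl9, Mrpl10, Mrpl17, Mrpl22, Mrpl32, Mrpl39 and Mrps18b. They are shown in the same way for 6, and that of Mrpl10 lies in the interval to Lrrc46 printed above.
Mrpl9 (chr3:94443299-94443326, + strand): ggcgcagctgCGCATGCGcggggtcctt
Mrpl17 (chr7:105811080-105811107, - strand): cgagttactgCGCATGCGtcctctgaga
Mrpl22 (chr11:58171622-58171649, + strand): cctcggactgCGCATGCGtatagtcagc
Mrpl32 (chr13:14613106-14613133, - strand): ttgacccttgCGCATGCGcaagaggggc
Mrpl39 (chr16:84735351-84735378, - strand): aggagaggcgCGCATGCGcccccgcgtg
Mrps18b (chr17:35916647-35916674, - strand): aacggcccgaCGCATGCGcactgggagc
Mrpl17, Mrpl32 and Mrps18b were among the 10 highest promoters, and Mrpl9, Mrpl10, Mrpl22 and Mrpl39 were not. Whether the match goes with the value was not tested. At Mrps18b the match lay 272 bp upstream of the nearest start (-272 bp), in the region toward Ppp1r10 that holds its highest peak.

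YY1 matches were footprinted at 6 genes, within 16 bp upstream (-16 bp) to 23 bp downstream of the nearest start, and all 6 lay on the strand of the gene.
Mrpl37 (chr4:107066822-107066850, - strand): tgcacgggcaAAGATGGCGgcgtccaggt
Mrpl38 (chr11:116138762-116138790, - strand): acctgggggaAAGATGGCGgcgccctggt
Mrpl42 (chr10:95501904-95501932, - strand): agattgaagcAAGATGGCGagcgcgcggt
Mrps10 (chr17:47368894-47368922, + strand): tcagggcaccAAGATGGCGgcgcgcgcag
Mrps18a (chr17:46111005-46111033, + strand): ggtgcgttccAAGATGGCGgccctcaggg
Mrps27 (chr13:99344790-99344818, + strand): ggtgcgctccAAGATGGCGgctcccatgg
In 4 of the 6, at Mrpl38, Mrps10, Mrps18a and Mrps27, the ATG inside the motif is an annotated start codon of the gene in GENCODE M21, so that motif and first codon coincide. At Mrpl37 and Mrpl42 it is not. How often motif and start codon coincide at other genes was not counted.

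Values of the replicates ran together across these genes. The ratio of replicate 1 to replicate 2 had a median of 1.16 over all genes with a promoter peak in both, and 61 of the 78 ribosomal protein genes were higher in replicate 1 and 17 lower. Relative to that median, the log2 ratio of the 78 had a median of 0.01 and lay within 0.5 of it in 71 genes (91.0%), against 80.0% of the 12871 genes. The values of the 12871 genes reached down to 0.165 in replicate 1, against 2.00 for the 78, and the part of low counts in this difference was not tested. Across the 78 genes the log2 values of the libraries had a Pearson correlation of 0.93, against 0.97 across the 12871 genes, whose range is wider.

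The largest departures were at both ends of the ratio. Mrpl34 had 14.8 in replicate 1 and 8.14 in replicate 2, a log2 ratio of 0.64 relative to the median, Mrpl24 had 2.42 and 1.41 (0.56), and Mrpl50 had 8.14 and 4.99 (0.49). At the other end Mrps34 had 2.09 (1.78 to 2.43) in replicate 1 and 3.77 (3.48 to 4.08) in replicate 2, a log2 ratio of -1.07. Mrpl53 had 2.76 and 3.67 (-0.63) and Mrpl3 2.19 and 2.79 (-0.57). Each of these rests on 1 library a side, and for all 6 the change relative to the median of all genes cannot be told apart from library differences. Markers of erythroblasts had a median log2 ratio of 0.61 over the 7 with a shared promoter region, and the part of cell makeup in the ratios of single genes was not tested.

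The surroundings of 2 genes differed between the libraries in a broader way. The authors' table of cut rates lists bases with a false discovery rate under 0.05, and the number of such bases within 1 kb of the 5′ end had medians of 978.5 in replicate 1 and 984.5 in replicate 2 over the ribosomal protein genes, against 984 and 1071 over genes with a promoter peak in both. At Mrps34 it was 804 in replicate 1 and 2001 in replicate 2, which is every base of the window. At Mrps24, whose outermost 5′ end comes from an outlying transcript, it was 0 in replicate 1 and 2001 in replicate 2. The promoter window of Mrps24 held 2 footprints in replicate 1 and 19 in replicate 2, of which 2 were found in both. The highest peak of Mrps24 lay elsewhere, over another start (chr11:5707641-5707800 in replicate 1) and outside the window around the outermost 5′ end (chr11:5715680). It was alike in both, with 7.11 (6.54 to 7.73) in replicate 1 and 6.49 (6.11 to 6.89) in replicate 2.

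The mean number of accessible regions away from promoters was close to that of all genes and below that of open genes. A distal region was counted where a shared region lay within 50 kb of a start of the gene and more than 1 kb from every protein-coding start. Of the 78 genes, 65 (83.3%) had such a region, against 71.0% of all protein-coding genes and 84.5% of those with a shared promoter region. The mean number was 2.38, against 2.32 for all genes and 2.94 for those with a shared promoter region. A region near several genes is counted for each of them, and a distance does not say which gene a region acts on.

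Mrpl14 had 11 distal regions, and Mrps18b, Mrpl47, Mrpl54, Mrpl48, Mrps18a and Mrps2 had 6 each. The regions around Mrpl14 had values of 0.987 to 4.90 in replicate 1 and 0.936 to 5.22 in replicate 2, and the highest of them lay at chr17:45736741-45736960. The strongest distal region near any of the 78 genes lay 3101 bp from the nearest start of Mrpl58, which encodes a peptidyl-tRNA hydrolase built into the large subunit, at chr11:115413261-115413520. Its own values were 11.7 for replicate 1 and 10.1 for replicate 2, against 4.23 and 4.05 for the promoter of Mrpl58 itself. A region 2632 bp from the nearest start of Mrps18b, at chr17:35919021-35919220, had 11.4 and 6.05. Over the 183 distinct distal regions of the 78 genes the median value was 1.37 in replicate 1 and 1.18 in replicate 2, against 1.14 and 0.91 over all distal shared regions.

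The tissue label was checked against markers. Of 8 erythroblast marker genes 7 had a shared promoter region, with Epor at 16.5 in replicate 1 and 9.28 in replicate 2, and so did 2 of 6 hepatoblast markers (Afp and Foxa3), with none at Alb. Shared regions were found at 0 of 4 macrophage, 1 of 3 megakaryocyte, 1 of 4 endothelial, 1 of 3 neural and 1 of 3 muscle markers. The share over all protein-coding genes was 58.4%. Foxa3 has a divergent partner, Sympk, 839 bp away. These counts were not tested. Replicate 1 had 76130 peaks and 151079 footprints and replicate 2 had 73852 peaks and 230992 footprints.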

How the data were processed

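DNase-seq had been run on 2 libraries, 1 per biological replicate, per the labels. Per the deposited notes, the authors derived peaks for each library from its own filtered alignment on mm10. In the deposited lists each peak carries a signal, and how it was normalized is not stated. The authors' footprint lists carry 0.01 in each line, read as a p-value or false discovery rate threshold, and their deposited cut rates give a p-value-like false discovery rate (FDR) under 0.05. The sources used here name no aligner, caller or version.

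The longer of the 2 deposited peak lists of each library was used. Values were divided by the step of each library to give assumed counts (100% whole within 0.05 of a step). Genes came from GENCODE M21 on the chromosomes of GRCm38.p6, which is mm10, and all 75 RefSeq promoters of the genes described equalled the genome. Python 3.11.15, pandas 2.3.3, scipy 1.17.1, pysam 0.24.0 and samtools 1.23.1 were used, and the interval code was tested on simulated data. Intervals are 95% Wilson (shares) or Poisson (counts) intervals.

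With 1 group, no test between conditions was possible, and the genes were described beside all protein-coding genes. Genes named were the 10 highest and 5 lowest by mean rank, the 5 widest, the 5 with most shared footprints or distal regions, the 3 at each end of the ratio between replicates, all divergent pairs and the ribosomal proteins with other symbols. Other genes named for a motif, a footprint count or a distal region were chosen after their values were seen. The genes, lists, motifs and rules were chosen with earlier results of these data known. Cytosolic ribosomal protein and respiratory chain genes were taken by symbol, and the respiratory chain set includes genes of ATP synthase.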

Additional observations from a re-analysis of the deposited data

How the results depend on the processing

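The 78 promoters with a shared region, the 78 with a footprint in both replicates, the median values and widths and the median ratio between replicates held within 1.5 times, or within the spread of the 78 genes, under all alternatives run for them. The lowest counts were 74 genes with a shared region, where overlap of at least 50% of both peaks was required, and 75 with a footprint, at 50% overlap of footprints and at the 5′ end alone. The mean of 2.38 distal regions moved to 1.55 with the shorter peak lists, to 0.936 within 20 kb and to 4.62 within 100 kb, and lay between 4 and 4.17 without replicate 1 or 2, as a region then needs no second library. Divergent partners fell to 18 of 78 with the 5′ end alone, against 29 with every start, since fewer starts are then used. They numbered 28 at a limit of 500 or 300 bp, and 32 with partners of any gene type or with overlaps of up to 100 bp. No paired analysis was possible because the result comes from no test and there is 1 group. Precision is limited by the number of libraries, 2, and values between 1.41 and 22.8 rest on 158 to 2652 assumed counts.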
